A study of Oryza sativa with 4 samples.

Results

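The rice genome holds a group of neighbouring diterpenoid genes on chromosome 4, the momilactone synthesis cluster, and its 5 genes are described here: OsCPS4 (Os04g0178300), CYP99A3 (Os04g0178400), OsMAS (Os04g0179200), OsKSL4 (Os04g0179700) and CYP99A2 (Os04g0180400). The 5 genes were among 31414 listed genes and had 6 of the 37972 listed transcripts, since OsCPS4 was listed with 2. The genes were chosen by name as the cluster, with their higher level in the overexpression plants already known. Their differences between the groups are therefore given as a description. Counts of cluster transcripts past a p-value threshold are given with the share or the total over all transcripts, and no conclusion is drawn from them.

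Whole plants of cv. Nakdong aged 3 weeks and not exposed to a treatment were sequenced, with 2 libraries for NT (non-transgenic) plants and 2 for OsC3H10OX plants. OsC3H10OX was line 20 in the T4 generation, in which the PGD1 promoter, used for expression in the whole body, drives OsC3H10. This is the CCCH zinc finger gene that the sample labels call OsTZF8. All values for the overexpression plants came from this single transgenic line. Levels are in FPKM (mapped fragments scaled to transcript length and to library size). In whole plants, fewer cells that express a gene and less RNA per cell cannot be told apart.

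Momilactones are diterpenoids that rice makes as phytoalexins against pathogens and also releases from its roots, where they inhibit the growth of other plants. Their synthesis starts from geranylgeranyl diphosphate, the common precursor of diterpenoids, which is cyclized in a pair of steps to syn-pimaradiene and then oxidized by cytochrome P450 enzymes and a dehydrogenase. Most of the enzymes for these steps are encoded next to each other on chromosome 4.

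All 5 genes had higher FPKM in both OsC3H10OX libraries than in either NT library. Summed over the 5 genes, the level was 12.3 and 12.6 FPKM in the NT libraries and 34.2 and 44.1 FPKM in the OsC3H10OX libraries, a ratio of means of 3.15. The genes differed by 2.69-fold to 6.95-fold between the group means, and the NT levels ranged from 0.174 FPKM for CYP99A2 to 4.81 FPKM for OsCPS4. By group mean the order of the genes was the same in both groups, from OsCPS4 through OsMAS, CYP99A3 and OsKSL4 to CYP99A2. The NT values of OsMAS and CYP99A3 overlapped. In OsC3H10OX the means of OsCPS4, OsMAS and CYP99A3 lay between 10.3 and 12.9 FPKM, and the OsMAS libraries lay on either side of those of the other 2 genes.

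**Figure D1:**
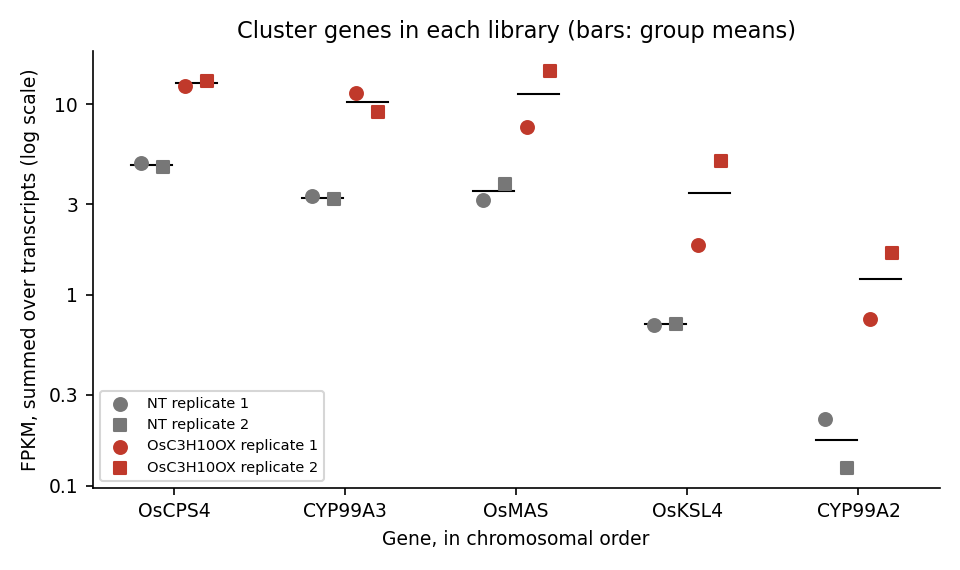
FPKM of the 5 cluster genes, summed over the transcripts of each gene, in each of the 4 libraries on a log axis (grey, NT; red, OsC3H10OX; circles, replicate 1; squares, replicate 2; bars, group means). Both red symbols lie above both grey symbols for each gene, and the red symbols lie close together for OsCPS4 (12.6 and 13.3 FPKM) but far apart for OsKSL4 (1.83 and 5.03 FPKM).

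OsCPS4 encodes syn-copalyl diphosphate synthase, which makes the first cyclization and commits the precursor to the syn series. It had the highest mean of the cluster genes in both groups, although OsMAS was above it in OsC3H10OX replicate 2, and stood at 4.90 and 4.72 FPKM in the NT libraries and 12.6 and 13.3 FPKM in the OsC3H10OX libraries. The libraries of each group lay close together, with means of 4.81 ± 0.131 FPKM for NT and 12.9 ± 0.542 FPKM for OsC3H10OX (SD, n = 2), which differed 2.69-fold. The gene was listed with 2 overlapping transcripts (IRGSP-1.0, chromosome 4), and reads common to both had to be divided between them by the authors' estimation. The transcript Os04t0178300-02 (5318346 to 5326199, 2768 nt) had 3.29 and 2.92 FPKM in NT against 8.34 and 8.41 FPKM in OsC3H10OX. The transcript Os04t0178300-01 (5318069 to 5326425, 1999 nt) had 1.62 and 1.80 FPKM against 4.21 and 4.90 FPKM. Both transcripts were higher to a like extent, 2.70-fold and 2.67-fold, and Os04t0178300-02 made up 61.9% to 67.0% of the FPKM of the gene in all 4 libraries.

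OsKSL4 encodes syn-pimaradiene synthase, which takes the product of OsCPS4 to the parent hydrocarbon of the momilactones. It lies at 5428346 to 5434023 (2754 nt). Its level was 0.694 and 0.707 FPKM in NT and 1.83 and 5.03 FPKM in OsC3H10OX. Both OsC3H10OX libraries were higher, but they differed 2.74-fold from each other, so that the group stood at 3.43 ± 2.26 FPKM (SD, n = 2). The ratio of the means was 4.90, and it was 2.62 with OsC3H10OX replicate 1 alone and 7.18 with replicate 2 alone.

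The relation between the cyclases, which act one after the other, showed the same split between the libraries. The ratio of OsKSL4 to OsCPS4 in FPKM was 0.142 and 0.150 in the NT libraries, 0.146 in OsC3H10OX replicate 1 and 0.378 in OsC3H10OX replicate 2. In replicate 1 both genes were thus higher by about the same factor, and only replicate 2 had a changed balance between them.

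CYP99A3 and CYP99A2 encode related cytochrome P450 enzymes of the CYP99A subfamily, of which CYP99A3 oxidizes a methyl group of syn-pimaradiene on the way to the lactone ring. CYP99A3 (5332364 to 5334476, 1779 nt; annotated as similar to CYP99A1) had 3.32 and 3.18 FPKM in NT and 11.5 and 9.08 FPKM in OsC3H10OX. Its means were 3.25 ± 0.0975 and 10.3 ± 1.72 FPKM (SD, n = 2), a ratio of 3.17. It was the only cluster gene with a lower value in OsC3H10OX replicate 2 than in replicate 1.

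CYP99A2 (5484864 to 5486703, 1749 nt) was the least expressed of the genes, with 0.224 and 0.124 FPKM in NT and 0.747 and 1.67 FPKM in OsC3H10OX. These values stood for about 13 and 11 fragments in the NT libraries and 48 and 100 in the OsC3H10OX libraries. The ratio of the means, 6.95, was the highest of the 5 genes, and it rested on the lowest fragment numbers. The transcript did not reach 1 FPKM in 2 libraries and was left out of the model across transcripts. A hypothetical gene, Os04g0180500 (5485028 to 5486605), lies entirely within CYP99A2. The library kit did not mark strand, so reads from the overlapping stretch cannot be told apart. Os04g0180500 was listed at 0.887 and 1.08 FPKM in NT and at 4.55 and 8.94 FPKM in OsC3H10OX. Summed, a choice made after seeing the data, both genes had 1.11 and 1.20 FPKM in NT and 5.29 and 10.6 FPKM in OsC3H10OX, a ratio of means of 6.88. CYP99A2 and CYP99A3 are paralogues, and how reads that match both were assigned is not given in the sources used here.

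OsMAS encodes momilactone A synthase, a dehydrogenase that carries out the last oxidation to momilactone A, and the files annotate it as similar to secoisolariciresinol dehydrogenase. It lies at 5385721 to 5387215 (1264 nt), between CYP99A3 and OsKSL4. Its level was 3.17 and 3.83 FPKM in NT and 7.59 and 15.0 FPKM in OsC3H10OX, or 3.50 ± 0.472 against 11.3 ± 5.27 FPKM (SD, n = 2). The lower OsC3H10OX library was still above both NT libraries, and the higher one was 1.98 times the lower.

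The gap between the OsC3H10OX libraries divided the cluster by position. The first 2 genes in chromosomal order, OsCPS4 and CYP99A3, had ratios of replicate 2 to replicate 1 of 1.06 (95% counting interval 0.978 to 1.15) and 0.789 (0.706 to 0.882). The genes that follow had ratios of 1.98 (1.73 to 2.27) for OsMAS, 2.74 (2.32 to 3.26) for OsKSL4 and 2.23 (1.57 to 3.22) for CYP99A2. These exact intervals were computed from the fragments behind each value and cover counting error only. For the last 3 genes they lay well above 1, so the libraries differed by more than counting error. The neighbouring genes among them, Os04g0179100 and Os04g0180500, had ratios of 1.72 (1.25 to 2.39) and 1.97 (1.68 to 2.31). Os04g0180500 lies inside CYP99A2 and cannot be separated from it. In NT, the counting intervals of the same ratio held 1 for all 5 cluster genes. They also held 1 for these neighbours, at 1.83 (0.924 to 3.88) for Os04g0179100 and 1.21 (0.827 to 1.80) for Os04g0180500. For Os04g0179100 the gap was thus as large in NT, on few fragments.

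**Figure D2:**
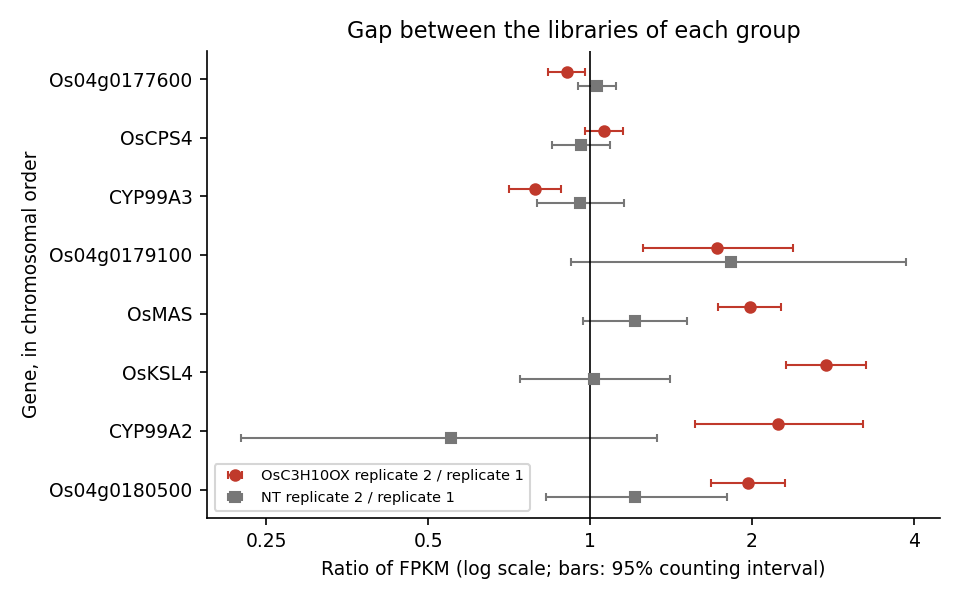
Ratio of FPKM in replicate 2 to replicate 1 within OsC3H10OX (red circles) and within NT (grey squares), on a log axis, for the 5 cluster genes and 3 neighbouring genes in chromosomal order. Bars are 95% counting intervals. The red ratios of OsCPS4 and CYP99A3 are 1.06 and 0.789, and those of OsMAS, OsKSL4 and CYP99A2 lie between 1.98 and 2.74.

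The log2 values of the OsC3H10OX libraries differed by at least as much as those of OsKSL4 in 1.81% of the 30449 transcripts tested, and by at least as much as those of OsMAS in 3.10%. Among the 655 transcripts at least 2-fold higher in OsC3H10OX, gaps were wider, with a median of 0.407 on the log2 scale against 0.173 for all tested. In that set 17.9% had a gap at least as large as that of OsKSL4 and 24.3% one at least as large as that of OsMAS. Replicate 2 was the higher OsC3H10OX library for 5 of the 6 cluster transcripts, whereas it was the higher one for 218 (33.3%) of those 655 transcripts. Of the 5, 2 are overlapping transcripts of OsCPS4, whose counting interval held 1, and that of CYP99A2 was not among the transcripts tested. The number of replicates does not allow a test of which library stands apart.

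On the scale used for the model across transcripts, the log2 difference was 1.20 ± 0.122 (SE) for Os04t0178300-02, 1.04 ± 0.138 for Os04t0178300-01, 1.41 ± 0.144 for CYP99A3, 1.38 ± 0.339 for OsMAS and 1.27 ± 0.407 for OsKSL4. The errors were larger for OsMAS and OsKSL4, the genes whose OsC3H10OX libraries lay farthest apart. This scale is log2(FPKM + 1) with quantile normalization, and it understates the change of genes near or under 1 FPKM, such as OsKSL4. CYP99A2 had a log2 difference of 0.88 on it. Called transcripts are those with a Benjamini-Hochberg (BH) adjusted p under 0.05 in limma, a linear model that shares the spread between replicates over all transcripts.

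Of the 6 cluster transcripts 5 were tested, and 2 of these, Os04t0178300-02 and CYP99A3, were called higher, against 0.647% of all 30449 transcripts tested called higher and 0.841% called lower. The log2 difference was at least 1 (2-fold) for 5 of the 5, against 2.15% of all tested. The groups did not overlap, with OsC3H10OX higher, for 5 of the 5, against 25.1% of all tested. These counts describe genes picked for this same contrast, and OsKSL4 passed the minimum of 1 FPKM in 2 libraries only through its OsC3H10OX values. The median log2 difference of the 5 transcripts was 1.27, beside 0.0017 for all tested.

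With a library left out, 1 library remained in its group, and only the size of the difference is given here. Without NT replicate 1 the log2 differences of the 5 cluster transcripts lay between 1.02 and 1.46. Without NT replicate 2 they lay between 1.06 and 1.46. Leaving out OsC3H10OX replicate 1 gave 1.16 to 1.86, highest for OsMAS and OsKSL4, and leaving out OsC3H10OX replicate 2 gave 0.69 to 1.55. Without OsC3H10OX replicate 2 the log2 difference reached 1 for 2 of the 5 transcripts.

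Position was examined next, since the cluster is defined by its location. Within 100 kb on either side of the cluster, which spans 168.6 kb, the files list 10 other genes with 11 transcripts, of which 8 were tested. The 2 tested transcripts within the span, of which 1 lies inside CYP99A2 and cannot be separated from it, had a median log2 difference of 1.79. The 6 outside had a median of -0.11. limma called 0 of the 8, and 3 had an unadjusted p under 0.05, as did 5391 of all 30449 transcripts tested.

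Both genes inside the span were higher in both OsC3H10OX libraries. Os04g0179100 (5380119 to 5380605), between CYP99A3 and OsMAS, had 1.05 and 1.93 FPKM in NT and 5.23 and 9.02 FPKM in OsC3H10OX (log2 difference 1.68 ± 0.315, adjusted p = 0.117, limma, BH). Its annotation, similar to OSIGBa0109M01.2 protein, names no function. The gene within CYP99A2, Os04g0180500, had a log2 difference of 1.90 ± 0.323 (SE; adjusted p = 0.0969, limma, BH). With OsC3H10OX replicate 1 left out the log2 difference of Os04g0180500 was 2.35, and with replicate 2 left out it was 1.46.

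Beyond the ends of the cluster the log2 differences lay closer to 0, a description with no test of inside against outside. On the side of OsCPS4, the actin-related gene Os04g0177600 had 13.7 and 14.2 FPKM in NT and 16.6 and 15.1 FPKM in OsC3H10OX over both transcripts. Its transcripts differed in opposite directions, with log2 differences of 0.67 for Os04t0177600-01 and -0.27 for Os04t0177600-02 (adjusted p = 0.110 and 0.465, limma, BH). Farther out, Os04g0177400, similar to the riboflavin synthesis protein ribD, and Os04g0177300, with a domain of Rad5p, had log2 differences of 0.14 and -0.19 (adjusted p = 0.584 and 0.498, limma, BH). On the side of CYP99A2, Os04g0180900, of unknown function, and Os04g0181100, of the HR-like lesion-inducer family, had -0.10 and -0.13 (adjusted p = 0.728 and 0.502, limma, BH). Os04g0181100 was expressed at 82.3 and 83.6 FPKM in NT and at 69.9 and 75.3 FPKM in OsC3H10OX, well above any cluster gene.

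**Figure D3:**
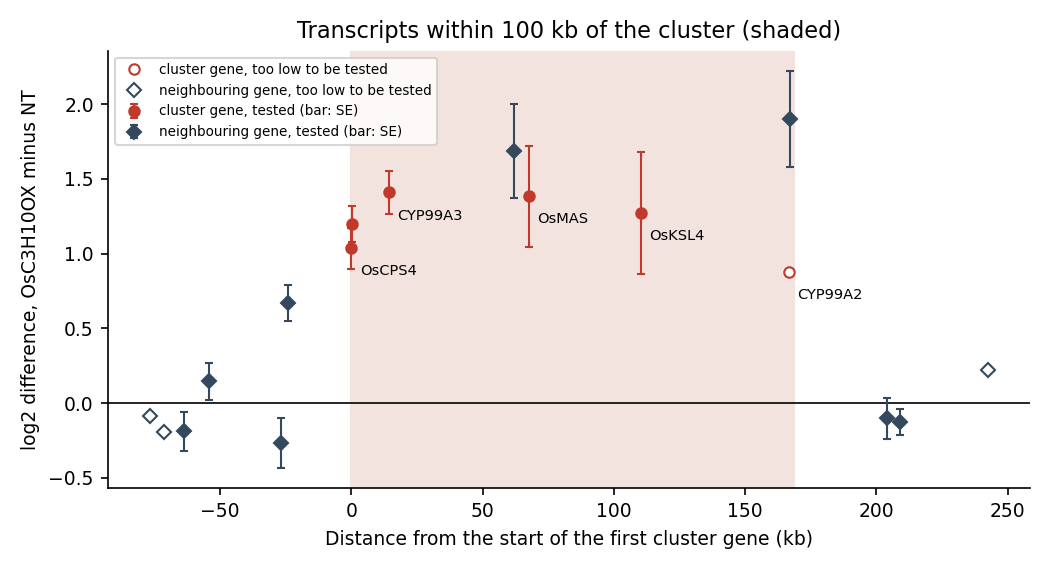
Difference in log2 level (OsC3H10OX minus NT) of all 17 listed transcripts within 100 kb of the cluster, plotted by the distance of their start from that of OsCPS4 in kb (red circles, cluster genes; blue diamonds, neighbouring genes; bars, SE; open symbols, too low to be tested). The shaded span holds values of 0.88 to 1.90, and the tested transcripts outside it lie between -0.27 and 0.67.

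The other steps of diterpenoid metabolism were compared by lists of known genes. Counts at an unadjusted p under 0.05, here and below, stand beside 5391 of all 30449 transcripts tested. The precursor geranylgeranyl diphosphate is supplied by the methylerythritol phosphate pathway of plastids. Its list had 10 genes with 16 transcripts, all tested, and limma called 0 of them, with 2 at an unadjusted p under 0.05 and a median log2 difference of 0.16. The highest value was that of OsDXS3 (Os07g0190000), a deoxyxylulose phosphate synthase of the entry step, at 2.50 and 2.62 FPKM in NT and 5.88 and 4.46 FPKM in OsC3H10OX (log2 difference 0.78, adjusted p = 0.109, limma, BH). The geranylgeranyl diphosphate synthase OsGGPPS1 (Os07g0580900) had a log2 difference of 0.12 for its main transcript and of -0.45 for Os07t0580900-02 (adjusted p = 0.277, limma, BH). The groups overlapped for neither transcript. Over the list the groups did not overlap for 5 of 16 transcripts with OsC3H10OX higher and for 1 with it lower. The shares over all tested were 25.1% and 28.1%.

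Rice has a second diterpenoid cluster on chromosome 2, for phytocassanes and related compounds made from ent-copalyl diphosphate. Of its 9 listed genes 4 were tested, limma called 0, 2 had an unadjusted p under 0.05, and the median log2 difference was 0.33. The cytochrome P450 gene Os02g0569900 of the CYP76M family had 0.421 and 0.442 FPKM in NT and 2.42 and 1.61 FPKM in OsC3H10OX (log2 difference 1.05, adjusted p = 0.0779, limma, BH). It passed the minimum of 1 FPKM in 2 libraries only through its OsC3H10OX values, so genes that low in NT were tested only where OsC3H10OX was higher. OsKSL7 (Os02g0570400), which makes the phytocassane hydrocarbon, had 1.11 and 0.994 FPKM against 3.46 and 2.03 FPKM (log2 difference 0.83, adjusted p = 0.177, limma, BH). OsCPS2 (Os02g0571100), the ent-copalyl diphosphate synthase of that cluster and the counterpart of OsCPS4, had 2.53 and 2.29 FPKM in NT and 3.46 and 0.586 FPKM in OsC3H10OX. Its OsC3H10OX libraries lay on either side of NT, with the higher value in replicate 1. OsKSL5 (Os02g0571300) was tested and had a log2 difference of -0.17. The remaining listed genes of that cluster were too low to be tested. Of these, OsKSL6 (Os02g0571800) had 0.485 and 0.479 FPKM in NT against 0.0748 and 0.220 FPKM in OsC3H10OX. Os02g0570500, of the CYP71Z family, had 0.777 and 0.547 FPKM against 0.252 and 0.325 FPKM. In the other direction, Os02t0569400-01 had 0.318 and 0.290 FPKM against 0.661 and 0.371 FPKM. The other untested transcripts overlapped between the groups.

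Among 4 further genes of the labdane-related diterpenoids, 3 were tested, 1 was called and 2 had an unadjusted p under 0.05. Their median log2 difference was 0.57. Over all transcripts tested 0.647% were called higher. OsKSL8 (Os11g0474800), a stemarene synthase that uses the product of OsCPS4, rose from 4.05 and 4.40 FPKM to 10.4 and 8.83 FPKM (log2 difference 1.02, adjusted p = 0.0481, limma, BH). The adjacent Os11g0474900, annotated as a stemarene synthase as well and chosen after its values were seen, rose from 2.70 and 3.33 FPKM to 8.74 and 7.30 FPKM (log2 difference 1.17, adjusted p = 0.0475, limma, BH). The genes are similar in annotation, and reads could have been divided between them. Both calls lay close to the threshold. That of OsKSL8 was lost without NT replicate 1, NT replicate 2 or OsC3H10OX replicate 1 (adjusted p = 0.203, 0.339 and 0.0866, limma, BH) and held without OsC3H10OX replicate 2 (adjusted p = 0.0467). That of Os11g0474900 was lost with each of the 4 libraries left out, at adjusted p between 0.0501 and 0.283 (limma, BH). OsKSL10 (Os12g0491800), for oryzalexins, had a log2 difference of 0.57 and CYP701A8 (Os06g0569500) one of 0.29 (adjusted p = 0.274 and 0.518, limma, BH). OsKSL10 reached 1 FPKM only in its OsC3H10OX libraries, at 0.689 and 0.605 FPKM in NT against 2.01 and 1.03 FPKM. CYP76M14 (Os01g0561600), another cytochrome P450, was too low to be tested, at 0.231 and 0.221 FPKM in NT and 1.21 and 0.406 FPKM in OsC3H10OX.

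Gibberellin synthesis starts from the same precursor by the ent route. Its 4 listed genes were tested, limma called 0 and 1 had an unadjusted p under 0.05. The median log2 difference was -0.23, and the groups did not overlap for 4 of the 4, with OsC3H10OX lower, against 28.1% of all tested. The lowest value was that of OsKO2 (Os06g0570100), an ent-kaurene oxidase, with 13.4 and 14.9 FPKM in NT and 10.9 and 10.3 FPKM in OsC3H10OX (log2 difference -0.37, adjusted p = 0.208, limma, BH). OsCPS1 (Os02g0278700) and OsKS1 (Os04g0611800), the cyclases of this branch, both had a log2 difference of -0.22.

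Known regulators of phytoalexin genes formed the last list. Its 10 genes had 16 tested transcripts, of which limma called 0, 1 had an unadjusted p under 0.05, and the median log2 difference was -0.03, with 10 transcripts lower and 6 higher by sign. The transcript with the unadjusted p under 0.05 was Os03t0285800-02 of the MAP kinase gene OsMPK3, at 22.2 and 25.1 FPKM in NT and 16.8 and 16.9 FPKM in OsC3H10OX (log2 difference -0.45, adjusted p = 0.167, limma, BH). OsTGAP1 (Os04g0637000), a bZIP factor that acts on the chromosome 4 cluster, had 23.7 and 25.1 FPKM in NT and 27.2 and 32.6 FPKM in OsC3H10OX for its main transcript (log2 difference 0.30, adjusted p = 0.313, limma, BH). DPF (Os01g0196300), a bHLH factor of diterpenoid phytoalexin synthesis, had 1.84 and 2.28 FPKM against 2.01 and 2.09 FPKM, a log2 difference of -0.01. The main transcript of OsWRKY45 (Os05g0322900) had a log2 difference of 0.19.

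**Figure D4:**
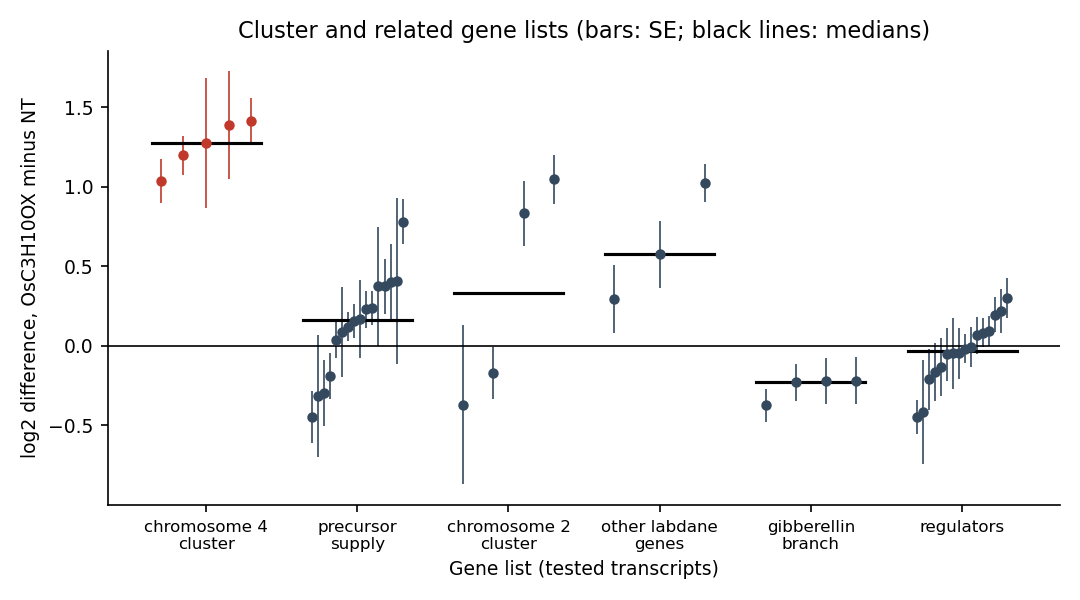
Difference in log2 level (OsC3H10OX minus NT) of each tested transcript of the cluster (red) and of 5 lists of related genes (blue), with SE as bars and the median of each list as a black line. The medians are 1.27, 0.16, 0.33, 0.57, -0.23 and -0.03 from left to right.

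Genes that share an enzyme name with a cluster member showed mixed patterns. Os04g0405300, which has the same secoisolariciresinol dehydrogenase annotation as OsMAS and lies elsewhere on chromosome 4 (20109576 to 20110741), had 3.15 and 3.84 FPKM in NT and 13.7 and 6.91 FPKM in OsC3H10OX (log2 difference 1.28, adjusted p = 0.178, limma, BH). Its NT values were close to those of OsMAS, but its higher OsC3H10OX library was replicate 1, whereas that of OsMAS was replicate 2. Os02g0570900, annotated as ent-copalyl diphosphate synthase, had under 0.7 FPKM in each library and was not tested.

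The mean pattern of the 5 genes over the 4 libraries was compared with that of 25950 other genes, as the root-mean-square distance of centred log2(FPKM + 1) values. The closest was Os11g0664800, a hypothetical gene on chromosome 11 (distance 0.00719, against a median of 0.663 over all genes), with 2.03 and 2.0 FPKM in NT and 5.09 and 7.49 FPKM in OsC3H10OX. The second was Os04g0340300 (distance 0.0285), with a terpenoid synthase domain, also on chromosome 4. It was expressed far above the cluster, at 32.2 and 31.5 FPKM in NT and 64.1 and 86.6 FPKM in OsC3H10OX. Os10g0340100, Os08g0170700 (with a disease resistance protein domain) and Os04g0151700 followed, at distances of 0.0566, 0.0691 and 0.0760. With 4 libraries many genes lie close to any such pattern. The genes inside the cluster, Os04g0179100 and Os04g0180500, ranked 252 and 484 by this measure, with differences of 1.69 and 1.91 in log2(FPKM + 1).

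Markers of root and shoot were summed for each library. The 4 root markers summed to 649.8 and 641.7 FPKM in NT and to 557.1 and 529.9 FPKM in OsC3H10OX, with limma calling 0 of 4 (1 at an unadjusted p under 0.05). RCc3 (Os02g0662000), a root protein gene, had a log2 difference of -0.44 (adjusted p = 0.155, limma, BH), while those of OsNRT2.1, OsLsi2 and OsLsi1 were 0.02, 0.18 and 0.21, so that the lower sum came from RCc3. None of the 4 was at 0. The 5 shoot marker genes summed to 9058 and 8511 FPKM in NT and to 11676 and 12736 FPKM in OsC3H10OX. Of their 8 tested transcripts 4 had an unadjusted p under 0.05. limma called 1, Os12t0274700-01 of the Rubisco small subunit gene OsRBCS2 (log2 difference 1.27, adjusted p = 0.0366, limma, BH). Of those 8 transcripts 6 were higher and 2 lower by sign. The other higher ones were Os12t0274700-02 (1.03), the main transcript of OsRBCS2, the Rubisco small subunit transcripts Os12t0291100-02 (1.10) and Os12t0291100-01 (0.57), and those of the light-harvesting gene CAB (0.29 and 0.07). The lower ones were OsPsbS1 (-0.07) and the Rubisco small subunit transcript Os12t0292400-01 (-0.18). The groups did not overlap in either sum, but the markers of a tissue did not move together, and the part of root and shoot content in the values of the cluster was not tested.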

How the data were processed

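Whole-plant RNA of NT and OsC3H10OX (2 libraries each, labelled replicates 1 and 2) was sequenced as single-end reads from TruSeq libraries. After trimming (Trimmomatic 0.32), TopHat placed the reads on IRGSP-1.0, and the authors deposited FPKM for each RAP-DB transcript, together with its length. The tool that estimated FPKM is not given in the sources used here. The deposited log2 values matched, on testing, log2(FPKM + 1) quantile-normalized over the 4 libraries, with differences of at most 0.0147 for all but a small share of values. The authors' own comparison columns (group means, fold changes, p-values and their BH adjustment) were present but not used. OsC3H10 itself was not analysed here, so the labels were not checked with it. Only the NT labels add a cultivar and an apparent year, so a batch and the genotype cannot be told apart. The OsC3H10OX labels hold a code that differs between the 2 libraries, and its meaning is not given. The study's methods call the replicates biological without saying how many plants each held or whether they were grown apart, and p-values measure the spread between these samples.

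Members and lists were chosen with earlier results of these data known. Log2 differences (OsC3H10OX minus NT) were fitted on the deposited log2 values with limma 3.58.1 under R 4.3.3, using a mean-variance trend and BH adjustment over all tested, for the 30449 transcripts, from 25899 genes, that reached a minimum of 1 FPKM in 2 or more libraries. The step was also run on simulated data whose spread was drawn from the fitted model. Such data cannot show whether that model holds for the real spread between libraries. An exact permutation test of 2 against 2 cannot go below p = 0.333. Gene levels are FPKM summed over transcripts.

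The text names the members, tested genes within 100 kb, list genes that were called or had an absolute log2 difference of at least 1, the 5 genes most alike in pattern and up to 5 that share an enzyme name. Other list genes were chosen after their values were seen. List genes were kept where their annotation held a word for their role. These words were widened for 4 genes after reading the annotations, and OsCASP1, annotated as non-coding, was dropped from the root markers. Os02g0569500 was not used. Gene names other than the annotations' are textbook names.

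Low FPKM values lay on even steps, which gave the number of fragments per kb that equals 1 FPKM. It was 37.1 in NT replicate 1, 56.5 in NT replicate 2, 41.2 in OsC3H10OX replicate 1 and 37.8 in OsC3H10OX replicate 2, and 88.8% to 91.2% of low values were whole within 0.05. Fragments behind FPKM and the exact 95% intervals were derived from them. Alternatives were log2(FPKM + 1) and log2(FPKM + 0.1) without normalization, no filter or a minimum of 5 FPKM, gene sums of FPKM, limma without trend, with robust estimation or with each transcript's own spread, a replicate block and each library left out in turn. Where a group kept 1 library, its spread was taken to equal that of the other group.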

Additional observations from a re-analysis of the deposited data

How the results depend on the processing

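The filters, the other spread models and the replicate block leave the log2 difference of a transcript as it is, so only the scale, the gene sums and the libraries left out could move it. Over these alternatives the log2 differences of the cluster transcripts ranged from 1.11 to 1.41 for Os04t0178300-02, 0.91 to 1.36 for Os04t0178300-01, 1.27 to 1.63 for CYP99A3, 0.91 to 1.86 for OsMAS and 0.69 to 1.98 for OsKSL4. CYP99A2 had 0.88 with no filter and 1.99 together with Os04g0180500, an alternative chosen after seeing the data.

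The 2 cluster calls became 0 with no filter (5 at an unadjusted p under 0.05), 0 with each transcript's own spread (3) and 0 with a replicate block (5). Over all transcripts the calls fell as well, from 197 higher to 58 with no filter, 1 with own spread and 17 with the block. The count at 2-fold was 3 of 3 tested with a filter of 5 FPKM and 2 to 5 with a library left out. The single call among other labdane genes became 0 without normalization at either pseudocount, with no filter, with a filter of 5 FPKM, with own spread and with the replicate block, and 0 to 1 with a library left out. The call of Os11g0474900 was lost in the same 6 alternatives with all libraries kept (adjusted p from 0.0564 to 0.278, limma, BH). Leaving out a library gave 0 to 1 calls for the chromosome 2 cluster and for the neighbouring genes, and 0 for the precursor, gibberellin and regulator lists. At 5 FPKM no gene of the chromosome 2 cluster was left to test.

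Over all transcripts, limma called 197 higher and 256 lower, 58 and 68 with no filter, 124 and 163 at 5 FPKM, 1 and 2 with own spread and 17 and 8 with the replicate block. An unadjusted p under 0.05 was found for 5391 in the main fit, 6336 with no filter, 4049 with own spread and 4487 with the block. Without NT replicate 1 it called 110 and 68, without OsC3H10OX replicate 1 138 and 159, without OsC3H10OX replicate 2 580 and 449, and without NT replicate 2 0 in both directions (2488 at an unadjusted p under 0.05). Whether the replicate numbers pair the samples is not given, so the replicate block used a number alone. The deviation of replicate 1 from its group mean correlated at only -0.03 between NT and OsC3H10OX across transcripts. This cannot show how the plants were grown or handled. Depth limits CYP99A2 most, at 11 and 13 fragments in NT. The cause of these changes was not tested.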
